A study of Danio rerio with 48 samples.

Results

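The comparison of high with low cobalt asked which transcripts of whole adult zebrafish differed between fish kept at 59.5 mg/L and fish kept at 39.7 mg/L of cobalt, when neither group was unexposed. It used 8 of the 48 arrays of the series, the 4 arrays titled as high cobalt and the 4 titled as low cobalt, chosen from the sample titles, and the probes carrying an ENSDART or OTTDART transcript ID. Between these groups 27 probes (0.0618%) were higher and 38 (0.0869%) were lower at the high dose, together 0.149% of the 43714 probes tested (limma on the 16 cobalt arrays, Benjamini-Hochberg adjusted p under 0.05). The increases ran from 1.37-fold to 4.43-fold for 26 of the raised probes, with ENSDART00000075049_1, at or below a log2 intensity of 5, the background limit, on all 4 low arrays, at least 1.19-fold higher, and the decreases from 1.43-fold to 2.6-fold. The number of calls depended on single arrays: it was 0 without high replicate 1 and 293 without high replicate 4. The control and mid cobalt arrays entered only the estimate of each probe's spread, and the number depended on them as well. With the 8 low and high arrays alone it was 9, 5 of them among the 65 called here. With the 12 exposed cobalt arrays it was 26.

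All fish were adults of 6 to 9 months, exposed for 24 h in flow-through glass aquaria, and whole frozen fish were ground, so a probe's level is that of the entire body. Cobalt groups of 4 arrays each were a control without metal (0 mg/L), low (39.7 mg/L), mid (46.3 mg/L) and high (59.5 mg/L), by measured concentration. The series also holds chromium (56.5, 69.9 and 80.6 mg/L) and nickel (42.4, 51.0 and 64.0 mg/L) with their controls, in 12 groups of 4. The nickel and chromium controls are titled as shared, 4 controls each on 2 arrays, so those 8 arrays are fewer than 8 independent samples. The labels name neither strain, sex nor the cobalt salt, and the RNA was pooled before labelling. The size of a pool is not stated, nor is it stated that the replicates had aquaria of their own. P-values therefore measure the spread between these arrays, which may be partly technical. In a whole-body extract, fewer cells of a type and less RNA per cell cannot be told apart.

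Cobalt is an essential trace metal, held at the centre of vitamin B12, and is toxic in excess. In vertebrate cells the cobalt ion is widely used to mimic low oxygen, because it hampers the iron-dependent prolyl hydroxylases that mark hypoxia-inducible factor for breakdown. Fish take up dissolved metals mainly through the gills, where cobalt competes with calcium for uptake. None of the 43714 probe IDs was paired with a gene symbol by the files or by the reference tables used here, so probes are given by transcript ID, nothing is said of their function, and the whole-organism label could not be set against tissue markers.

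The 8 arrays were alike in the share of probes above background and in their correlations. As the normalization of the deposited values is not stated, this likeness says little about quality. Some control rows stood apart on single arrays, as given below. Between 66.2% and 68.5% of probes lay above a log2 intensity of 5, taken here as the background limit, and precision is limited by there being 4 arrays per group. Correlations over all probes were 0.9826 to 0.9889 among low arrays, 0.9839 to 0.9884 among high arrays and 0.9802 to 0.9864 between them. The 5 control rows whose names mark them as likely spike-ins averaged a log2 intensity of 10.77 ± 0.10 (SD, n = 4) on high and 11.00 ± 0.16 (SD, n = 4) on low arrays, a difference that did not pass an exact two-sided permutation test (p = 0.0571, where 0.0286 is the smallest p for 4 against 4). Scaling to them raised every high minus low difference by 0.23 on the log2 scale, and 642 probes were then called, 611 higher and 31 lower. Of those calls 95.2% were higher, against 41.5% with the values as deposited. The 642 held only 43 of the 65 probes called on the deposited values. The sizes and directions below are relative to the deposited scale, on which the median difference of all probes was -0.001.

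**Figure D1:**
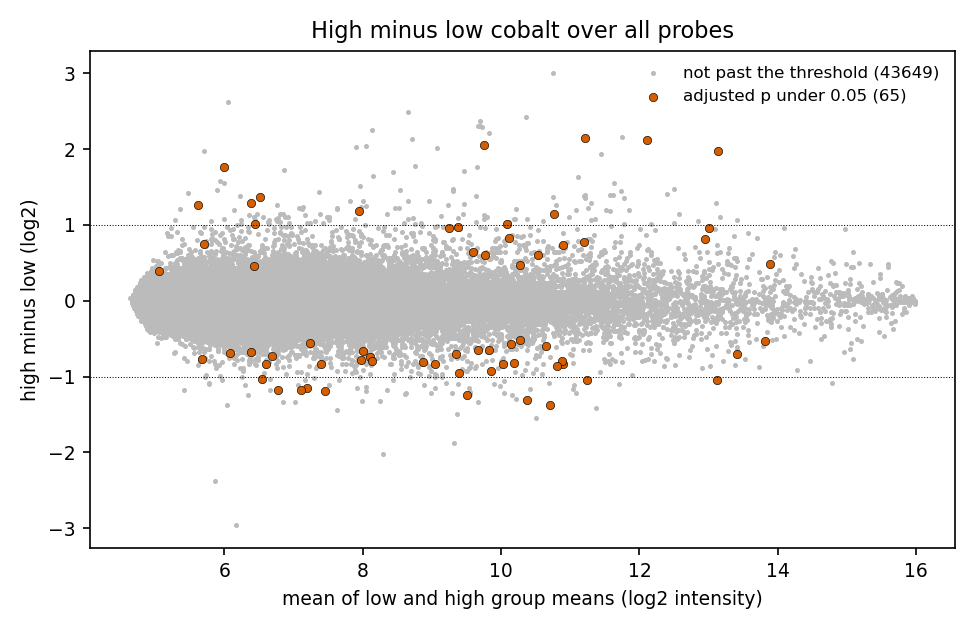
High minus low difference in log2 intensity (vertical axis) against the mean of both group means (horizontal axis, log2 intensity) for the 43714 probes, with the 65 past the threshold in orange and dotted lines at 2-fold. The called probes lie along most of the intensity range, and many grey probes lie beyond the 2-fold lines.

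The largest increase among the called probes was that of ENSDART00000030890_1. Its log2 intensity was 10.36, 10.22, 10.45 and 9.52 on the 4 low arrays, and 11.96, 11.91, 13.37 and 11.92 on the 4 high arrays. The groups did not overlap, and high replicate 3 stood above the other 3. The means were 10.14 ± 0.42 and 12.29 ± 0.72 (SD, n = 4 each), so the high group was 4.43-fold brighter, by 2.15 ± 0.37 (SE) on the log2 scale (limma adjusted p = 0.0354). The other probe of the transcript, 1 of the 65 as well, was higher by 2.05 ± 0.27 (SE; limma adjusted p = 0.0179). At the mid dose ENSDART00000030890_1 read 11.59, 11.04, 10.63 and 11.11, above all low and below all high arrays, and on the control arrays it read 10.24, 10.80, 9.26 and 9.67. Low and control arrays overlapped. Without any single 1 of low replicates 1 to 4 or high replicates 1 to 3 the call was lost, at limma adjusted p from 0.0561 (without high replicate 3) to 0.0964 (without low replicate 1), while the difference stayed between 1.79 and 2.28.

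Among transcripts, each represented by its brightest probe, ENSDART00000062845_2 was the largest called increase after it, from an already bright level. It read 12.06, 11.72, 12.04 and 12.77 on the low arrays and 14.43, 14.13, 14.04 and 13.88 on the high arrays. Every high array lay more than a log2 unit above the brightest low array. The means were 12.15 ± 0.44 and 14.12 ± 0.23 (SD, n = 4 each), a difference of 1.97 ± 0.30 (SE) or 3.92-fold (limma adjusted p = 0.0216), and the transcript's other probe, also called, rose by 2.12 ± 0.32 (SE). Control arrays read 11.13, 12.34, 10.91 and 11.00, with replicate 2 apart from the rest, and mid arrays 12.85, 12.69, 11.95 and 12.50. The mid arrays overlapped the low ones, so most of the change in the mean fell between mid and high. Without low replicate 1, 2 or 3 or high replicate 1 or 2 the limma adjusted p was 0.0696 to 0.0856, and the difference over all 8 such fits was 1.83 to 2.18.

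The largest decrease among the called probes was that of ENSDART00000079420_2. It read 11.69, 10.99, 11.74 and 11.14 on the low arrays and 9.49, 9.77, 10.10 and 10.68 on the high arrays. High replicate 4 came closest to the low group, without overlap. The means were 11.39 ± 0.38 and 10.01 ± 0.51 (SD, n = 4 each), a difference of -1.38 ± 0.24 (SE), or 2.6-fold lower (limma adjusted p = 0.0352). The other probe of the transcript differed by -1.22 ± 0.23 (SE) and narrowly missed the threshold (limma adjusted p = 0.0516). The control arrays, at 10.95, 10.60, 10.36 and 10.35, lay below all low arrays, and mid arrays read 10.49, 10.30, 10.34 and 10.74. The differences from control did not pass the limma test, at 0.83 ± 0.24 (SE, adjusted p = 0.0534) for low and -0.55 ± 0.24 (SE, adjusted p = 0.164) for high. After spike-in scaling the former was 0.95 and passed it (limma adjusted p = 0.0155). The high-low call was lost without any single 1 of low replicates 1 to 3 or high replicates 1 to 3, at limma adjusted p from 0.0646 to 0.131, with a difference between -1.60 and -1.21 over all 8 such fits. With the replicate number as a block, ENSDART00000079420_2 and ENSDART00000030890_1 both had a limma adjusted p of 0.0523. The arrays in the fit mattered too. On the 8 low and high arrays alone the limma adjusted p was 0.0939 for ENSDART00000030890_1, 0.0624 for ENSDART00000062845_2 and 0.137 for ENSDART00000079420_2, and on the 12 exposed arrays it was 0.0593 for ENSDART00000030890_1 and 0.0777 for ENSDART00000079420_2. With values below log2 5 set to 5 it was 0.0806 and 0.0801 for ENSDART00000030890_1 and ENSDART00000079420_2.

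ENSDART00000060728_y_2 had a lower mean at each higher dose. It read 11.10, 10.80, 11.24 and 10.92 on the low arrays and 9.35, 9.28, 10.02 and 10.18 on the high arrays. Again no high array reached the low group, and high replicates 3 and 4 were the least reduced. The means were 11.02 ± 0.19 and 9.71 ± 0.46 (SD, n = 4 each), a difference of -1.31 ± 0.21 (SE), or 2.48-fold lower (limma adjusted p = 0.0256), and the transcript's other probe fell by 1.24 on the log2 scale (SE 0.20, limma adjusted p = 0.0256). Control means of 11.29, low of 11.02, mid of 10.54 and high of 9.71 followed the dose, though low arrays overlapped control arrays and 1 mid array, at 10.85, reached the low range. Without low replicate 1, 2 or 3 or high replicate 1 or 2 the limma adjusted p was 0.0725 to 0.0955, and the difference over all 8 such fits was -1.47 to -1.17. The call was also lost on the 8 low and high arrays alone (limma adjusted p = 0.0939), on the 12 exposed arrays (0.0586) and with values below log2 5 set to 5 (0.0564).

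**Figure D2:**
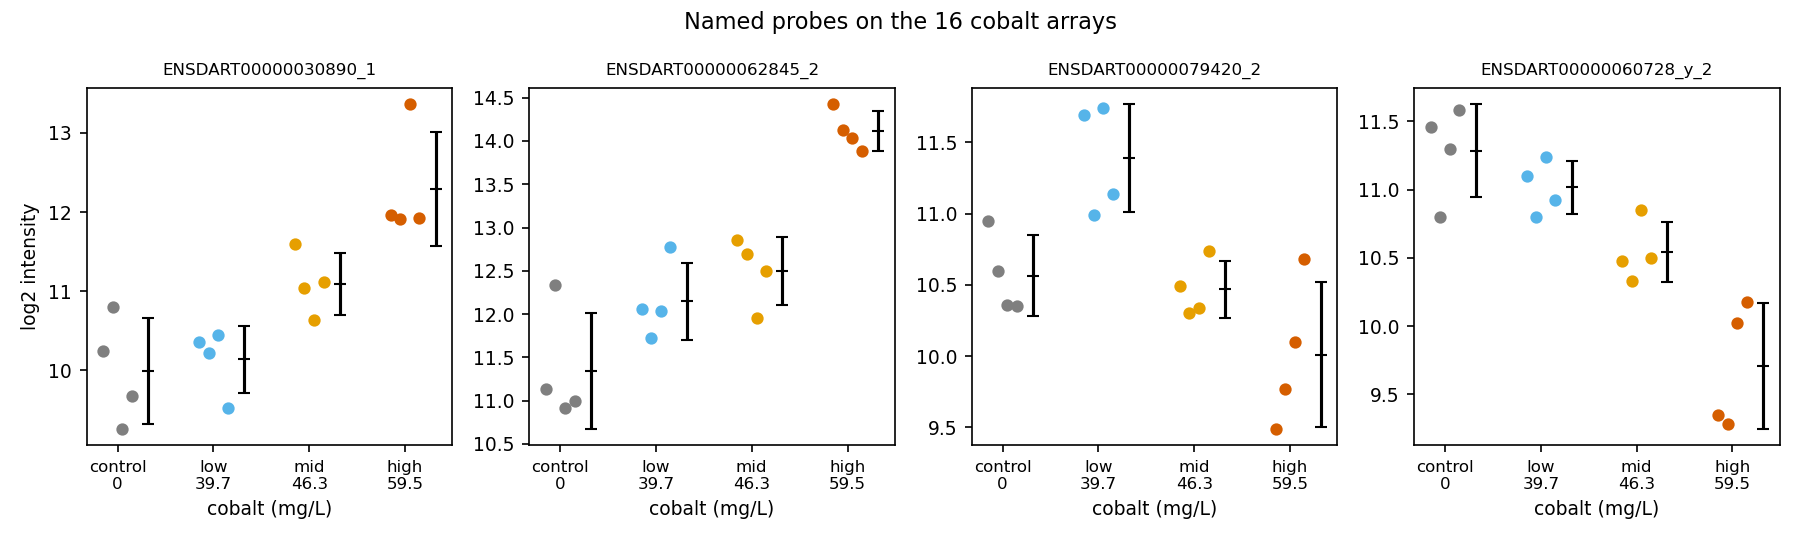
Log2 intensity (vertical axes, 1 scale per panel) of the 4 probes with the largest called increases and decreases, among transcripts each represented by its brightest probe, on the 16 cobalt arrays, by dose in mg/L (horizontal axes); dots are replicates 1 to 4 from left to right and bars the mean ± SD (n = 4). High and low arrays do not overlap in any panel, and mid means lie between them.

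The 65 called probes belonged to 57 transcripts, 24 raised and 33 lowered, and no transcript was called in both directions. The 27 raised probes had a median difference of 0.96 (log2), or 1.95-fold, and 12 of them reached 2-fold. Their mean level on the low arrays ran from 4.86 to 13.63 with a median of 9.46. The 38 lowered probes had a median difference of -0.82, or 1.76-fold, with 10 at 2-fold or more, and low-array means from 6.06 to 14.08 with a median of 9.79. Few calls were of dim probes: 62 of the 65 lay above log2 5 on all 8 arrays, against 57.3% of all probes. High and low arrays did not overlap for 64 of the 65, against 5.37% of all probes, a separation that belongs to how the calls were made.

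The adjusted p-values of the 65 lay close to the threshold, between 0.0179 and 0.0494, with 11 under 0.02 and 0 under 0.01. At an unadjusted p under 0.05 there were 4498 probes, 10.3% of those tested. The limma count without low replicate 1 was 7, without low replicate 2 it was 4, without low replicate 3 it was 15 and without low replicate 4 it was 110. Without high replicate 1 it was 0 (3805 at an unadjusted p under 0.05), without high replicate 2 it was 20, without high replicate 3 it was 55 and without high replicate 4 it was 293. The 293 held all 65, whereas the 55 held 35 of them and the 4 held 3. High replicate 1 had a low value of the control row named DCP_1_7, at log2 9.69 against 10.61 to 10.92 on the other high arrays, and its array description carries the letters "ar", whose meaning the labels do not give. Its part in the count beyond the value without it was not tested.

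**Figure D3:**
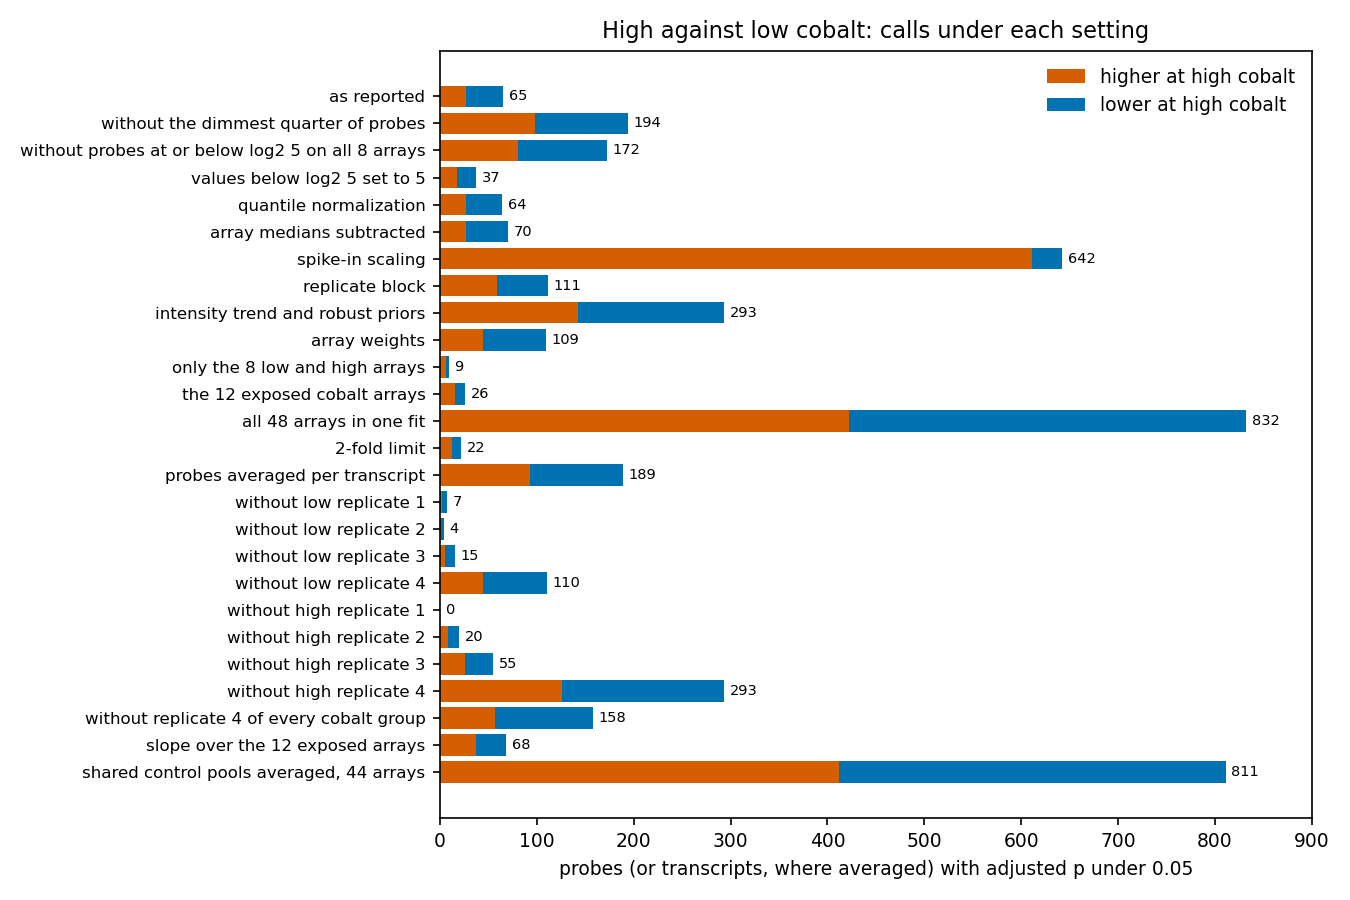
Number of probes (horizontal axis; transcripts where probes were averaged) called between high and low cobalt under each setting (vertical axis), stacked as higher (orange) and lower (blue) at the high dose. The count is 65 as reported, between 0 and 293 when 1 array is left out, and highest, 832, when all 48 arrays share the estimate of the spread.

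Many probes differed by 2-fold or more in the means without passing the test. There were 219 such probes, 0.501% of all, of which 147 were higher and 72 lower, and 197 of them were not called. Their standard errors had a median of 0.35 (log2), against 0.20 for the 22 called probes of that size (0.0503% of all). The smallest adjusted p among the 197 was 0.0516, and 69 had one under 0.1. High and low arrays did not overlap for 118 of the 197, against 5.37% of all probes. The 197 were picked for a wide gap between the means, which itself favours such a separation.

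Probes of the same transcript that were not themselves called gave a second reading on the same arrays. All 57 transcripts had another probe on the array, and 3 raised and 5 lowered transcripts had several called. Of the 21 uncalled probes of raised transcripts, all 21 were higher or level in the high group, with a median of 0.74 and a range from 0 to 1.56, and 18 had an unadjusted p under 0.05. Of the 28 uncalled probes of lowered transcripts 27 were lower, with a median of -0.52 and a range from -2.02 to 0.40, and 22 had an unadjusted p under 0.05. No such probe was called in the opposite direction. Over all probes 10.3% had an unadjusted p under 0.05, in either direction. The probes of a transcript share the RNA and the arrays, so this describes the measurement of each transcript and adds no replicate.

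The mid dose placed these changes along the concentration range. Mid minus low and high minus mid each gave 0 limma calls (0%), with 2175 and 3080 probes at an unadjusted p under 0.05, 4.98% and 7.05% of those tested. After spike-in scaling high minus mid gave 37 limma calls, all higher (12760 at an unadjusted p under 0.05). These steps of 6.6 and 13.2 mg/L share arrays with the 19.8 mg/L step from low to high. For 26 of the 27 raised and 36 of the 38 lowered probes the mid mean lay between the low and high means, as it did for 38.9% of all probes; the called probes had been chosen for a wide gap. The mid concentration lies 33.3% of the way from low to high. At that point the raised probes had covered a median of 35.5% of their low to high difference (quartiles 22.4% and 48.4%) and the lowered probes 48.3% (quartiles 24.7% and 56.7%). These fractions use the low and high means on which the probes were chosen. They therefore do not measure the shape of the response to dose, which was not tested.

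By array, the median over the raised probes, as a difference from their low means, was 0.42, 0.40, 0.10 and 0.30 on the 4 mid arrays. Over the lowered probes it was -0.41, -0.45, -0.15 and -0.38. Mid replicate 3 was the closest to the low group in both lists. The low means from which these differences are taken also served to choose the probes, so the mid values are not independent of the choice. On the high arrays, which had served to choose the probes as well, the medians were 1.03, 1.12, 0.93 and 0.65 for the raised and -0.93, -0.82, -0.76 and -0.69 for the lowered probes, least on high replicate 4.

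**Figure D4:**
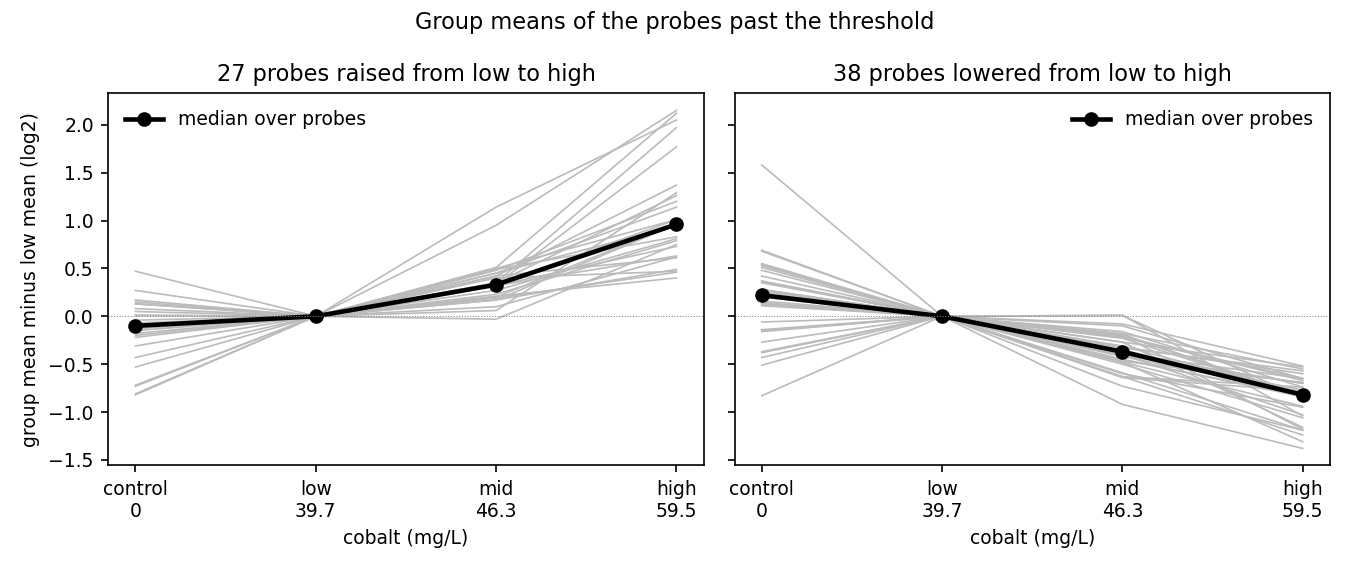
Group mean minus low mean (vertical axis, log2) of the called probes at each cobalt concentration in mg/L (horizontal axis), 27 raised on the left and 38 lowered on the right; grey lines are probes and the black line is the median over probes. The low means are 0 by construction, and the median of the mid means lies between low and high in both panels.

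Control arrays gave a reference for the unexposed level, with low, mid and high compared with the same 4 arrays. Low minus control had 6.5% of all probes past the threshold and high minus control 13.4%. The raised probes had median differences from control of 0.09 at low, 0.42 at mid and 1.19 at high, and the lowered probes of -0.22, -0.60 and -0.98. As the same controls are subtracted, the order of low and high follows from the choice of the probes by high minus low. Single probes varied in where the low group lay: low minus control ran from -0.46 to 0.81 among the raised and from -1.58 to 0.83 among the lowered probes. The contrast of mid with control shares no array with that of high with low, but both use the same estimate of each probe's spread. The raised and lowered probes were chosen partly for a small value of that estimate, so their calls against control are not independent of the choice. In mid minus control 9 of the 27 raised probes were called higher and 0 lower, where 4.38% of all probes were called higher. Of the 38 lowered probes 26 were called lower and 0 higher, where 3.75% of all probes were called lower.

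None of the probes described here for their change against control was called between low and high. ENSDART00000055287_2, the largest increase over control at both doses, had mean levels of 9.87 in controls, 14.37 at low, 14.66 at mid and 14.79 at high (log2 intensity, n = 4 each). Its difference from control was 4.50 ± 0.25 (SE) at low and 4.93 ± 0.25 (SE) at high, while high minus low was 0.43 ± 0.25 (SE) and did not pass the test (limma adjusted p = 0.621). ENSDART00000082927_1, the largest decrease from control at both doses, had means of 11.53, 8.38, 8.49 and 7.43 in the same order. Its high minus low difference of -0.94 ± 0.41 (SE) was not called either (limma adjusted p = 0.425). The decrease after it at high, that of ENSDART00000019431_2, had means of 9.24 in controls, 6.73 at low, 6.34 at mid and 5.36 at high. Its difference from control at high was -3.87 ± 0.32 (SE), and its high minus low difference of -1.37 ± 0.32 (SE), with no overlap of the groups, missed the threshold (limma adjusted p = 0.0875).

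Chromium and nickel, tested on other fish and other arrays, were read for the same 65 probes over their own low to high steps. The steps differed in size, 24.1 mg/L for chromium and 21.6 mg/L for nickel, from higher starting concentrations, so the values stand side by side. In chromium 24 of the 27 probes raised by cobalt were above 0, with a median of 0.47 and a range from -0.86 to 1.29, and 33 of the 38 lowered probes were below 0, with a median of -0.25. Over all probes 49.7% were above 0 in chromium. In the fit of all 48 arrays 3 of the 27 were called higher in chromium and 1 lower, where 0.247% and 0.215% of all probes were, and 1 of the 38 was called lower. Over the low to high steps that fit called 202 probes in chromium, 1 in nickel and 832 in cobalt. The 65 cobalt calls come from the fit of the cobalt arrays alone, so the chromium and nickel counts do not compare with 65. In nickel 24 of the 27 raised probes were above 0, with a median of 0.20, but only 21 of the 38 lowered probes were below 0, with a median of -0.03, where 49.4% of all probes were above 0. None of the 65 was called in nickel by limma, where 1 probe in all (0.00229%) passed and 6.53% had an unadjusted p under 0.05. Such a p was found for 3 of the 27 and 6 of the 38, counted in either direction. As 17 of the 38 lowered probes were above 0 in nickel, these counts do not measure a shared direction.

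Among the 4 probes described above, ENSDART00000062845_2 was also higher by 0.94 ± 0.33 (SE) in chromium and 1.17 ± 0.33 (SE) in nickel, neither past the threshold (limma adjusted p = 0.255 and 0.418). ENSDART00000030890_1 differed by 0.71 ± 0.37 and 0.25 ± 0.37 (SE), with limma adjusted p of 0.644 and 0.988. Chromium low replicate 2 read 12.81 for it, against 10.35 to 10.71 on the other 3 arrays of that group. ENSDART00000079420_2 differed by -0.47 ± 0.26 and -0.60 ± 0.26 (SE), with limma adjusted p of 0.673 and 0.685. ENSDART00000060728_y_2, which fell in cobalt, differed by 0.08 ± 0.20 and 0.13 ± 0.20 (SE) in chromium and nickel. Its means in both metals were already below control at the low dose. They were 11.30 in controls, 9.80 at low and 9.88 at high for chromium, and 11.41, 10.73 and 10.86 for nickel.

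**Figure D5:**
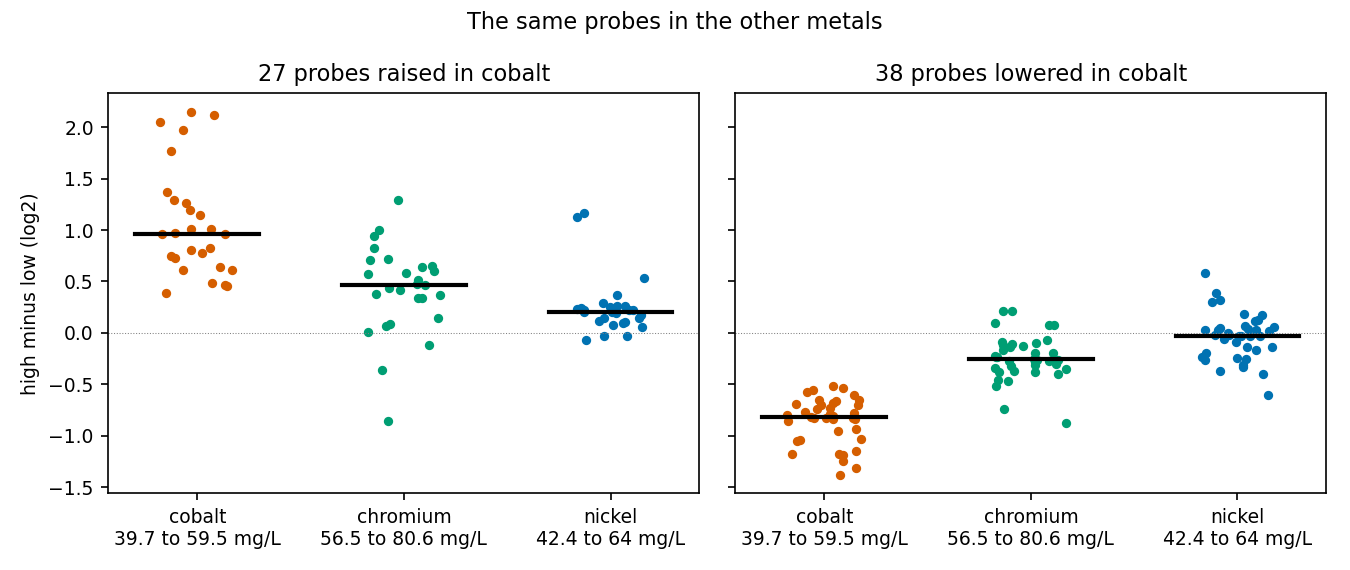
High minus low difference (vertical axis, log2) of the 27 raised (left) and 38 lowered (right) probes in cobalt, chromium and nickel (horizontal axis, with the low and high concentrations); dots are probes and black lines medians. Cobalt values chose the probes; the medians in chromium are 0.47 and -0.25, and in nickel 0.20 and -0.03.

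Whether the step from low to high differed between metals was tested across all probes. Between cobalt and chromium 71 probes differed, 0.162% of those tested, 59 with a more positive and 12 with a more negative step in cobalt. The largest was ENSDART00000073621_2, which read 7.52, 8.45, 8.98 and 9.23 at low cobalt and 10.99, 11.12, 11.10 and 10.22 at high cobalt. Its cobalt controls read 7.99, 10.4, 7.45 and 7.47, so control replicate 2 lay above high replicate 4. Its chromium control mean was 6.83, below its means at low and high chromium. In chromium its mean went from 8.71 ± 0.68 to 7.53 ± 0.62 (SD, n = 4 each), and the steps differed by 3.49 ± 0.62 (SE; limma adjusted p = 0.00417). ENSDART00000040348_2 likewise had cobalt means of 7.58 and 9.28 and chromium means of 7.98 and 7.26, a difference of 2.42 ± 0.39 (SE; limma adjusted p = 0.00146). Its control means were 7.78 for cobalt and 6.98 for chromium. In the other direction, ENSDART00000102690_2 went from 9.22 to 7.99 in cobalt and from 5.53 to 6.04 in chromium, whose control mean was 10.21, so that its chromium step lay near the background limit, with a difference of -1.74 ± 0.36 (SE; limma adjusted p = 0.0199), which was not called after spike-in scaling (0.0652) or without low replicate 1 (0.0602), low replicate 2 (0.0502) or high replicate 4 (0.0504). ENSDART00000087547_y_1 went from 7.63 to 6.51 and from 6.23 to 6.78, a difference of -1.66 ± 0.30 (SE; limma adjusted p = 0.00473). Its control means were 7.43 for cobalt and 7.70 for chromium. In the fit of the cobalt arrays alone, none of these 4 was itself called between high and low cobalt (limma adjusted p = 0.116, 0.0766, 0.0591 and 0.0562). The differences between metals come from the fit of all 48 arrays, which called 832 probes between high and low cobalt. Whether that fit called these 4 in cobalt is not given here. The count was 47 without high replicate 1 and 111 without high replicate 4, and 68 when the 2 arrays of each shared control were averaged.

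Between cobalt and nickel 38 probes differed, 0.0869% of those tested, 12 with a more positive and 26 with a more negative step in cobalt. ENSDART00000046891_1 read 9.63, 9.96, 9.37 and 9.49 at low cobalt and 7.65, 8.43, 8.50 and 9.29 at high cobalt, where replicate 4 came closest to the low arrays, while its nickel mean went from 8.90 to 9.43. The steps differed by -1.68 ± 0.32 (SE; limma adjusted p = 0.0266). Control means of this probe were 10.50 for cobalt and 9.35 for nickel, so the low nickel mean lay below its control and the high nickel mean near it. For ENSDART00000060728_y_2 the difference was -1.44 ± 0.28 (SE; limma adjusted p = 0.0266), with nickel means of 10.73 and 10.86. Its nickel control mean was 11.41. The largest positive differences were 1.44 ± 0.31 (SE) for ENSDART00000073460_y_2 (limma adjusted p = 0.0484; 0.0678 with shared controls averaged and 0.066 with values below log2 5 set to 5) and 1.29 ± 0.25 (SE) for ENSDART00000004483_2 (limma adjusted p = 0.0266). The latter was dim, at or below log2 5 on 3 of the 4 low cobalt arrays, and read 6.68, 6.42, 6.23 and 5.69 at high cobalt. In nickel it was dim in both groups, with means of 5.01 and 4.98 and 2 of 4 low and 1 of 4 high arrays at or below log2 5, so its nickel step rests on little signal over background. With values below 5 set to 5 the difference was 1.25 ± 0.22 (SE; limma adjusted p = 0.0243). All 4 calls were lost without low replicate 1 or high replicate 1 or 2, when 1, 0 and 11 probes were called in all, and after spike-in scaling, which gave 0 calls (1797 at an unadjusted p under 0.05). The count was 16 without low replicate 2, 65 without low replicate 4 and 171 without high replicate 4. Without low replicate 2, ENSDART00000004483_2 and ENSDART00000046891_1 had limma adjusted p of 0.054 and 0.056, and ENSDART00000073460_y_2 was not called either without low replicate 3 (0.0682), low replicate 4 (0.0899) or high replicate 3 (0.0502).

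Among the 65 probes, 2 raised ones had a more positive and 3 lowered ones a more negative step in cobalt than in chromium, where 0.135% and 0.0275% of all probes were called in those directions. Against nickel these were 2 raised and 7 lowered ones, where 0.0275% and 0.0595% of all probes were called. These tests share the cobalt arrays on which the 65 were chosen.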

How the data were processed

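Total RNA of whole fish was pooled, amplified and labelled with Cy3 for one-colour Agilent arrays, per the labels' protocols. The authors deposited a table of log2 intensity values, and its log2 scale was read from the values; for the scanner, background correction and normalization the sources used here give nothing. Values were used without further scaling. Groups came from sample titles and, for the nickel and chromium controls, from the chemical group in the labels. The table holds 43714 probes of 21903 transcripts and 61 control rows, kept out of all tests. An ID without its suffix was taken as the transcript. The background limit of log2 5 was set after the values were seen.

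In R 4.3.3 with limma 3.58.1, lmFit and eBayes were run on the 16 cobalt arrays with a coefficient per group, two-sided, with Benjamini-Hochberg adjustment across the whole set of probes and a threshold of 0.05. Differences between metals came from 1 fit of 48 arrays, in which each shared nickel and chromium control counts as 2 arrays; averaging them was an added alternative. Named probes are, per contrast, those with an adjusted p under the threshold that rose most (2) and fell most (2), with each transcript represented by its brightest probe. For the contrasts with control only the largest each way at both doses, and 1 further decrease, are described. Gene lists drawn up earlier, cell type markers among them, were not run, as 0 probes matched a gene symbol. The comparison and its lists were chosen with earlier results of these data known.

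On simulated data for this contrast with 43714 probes, the fit recovered 26.9% of 67 probes changed 1.5-fold, 70.1% of 67 changed 2-fold and 95.5% of 66 changed 4-fold, with 3 false calls among 131. The changed probes were drawn from those with a mean above log2 6 on the cobalt arrays, so these rates do not cover dimmer probes. Noise in the simulation was normal and independent between probes. With 131 calls the adjusted threshold also fell at a larger unadjusted p than with the 65 calls of the data. The rates may therefore overstate what could be detected here. Alternatives covered dim probes, normalization, spike-in scaling, the arrays in the fit, array weights, the replicate block and leaving out arrays.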

Additional observations from a re-analysis of the deposited data

Results flagged for a closer look

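In 7 cases 1 array stood apart from the other 3 of their group by more than Dixon's limit, among 140 sets of 4 values tested, where chance marks about 1 in 20. ENSDART00000030890_1 read 13.37 on high replicate 3, against 11.91 to 11.96 on the other high arrays. ENSDART00000062845_2 read 12.34 on control replicate 2, against 10.91 to 11.13. ENSDART00000073621_2 read 10.22 on high replicate 4, against 10.99 to 11.12. Outside cobalt, ENSDART00000030890_1 read 12.81 on chromium low replicate 2, against 10.35 to 10.71. ENSDART00000062845_2 read 11.58 on chromium mid replicate 1, against 13.13 to 13.22. ENSDART00000046891_1 read 9.16 on nickel high replicate 3, against 9.49 to 9.54. The spike-in mean was 11.24 on low replicate 1, against 10.89 to 10.93 on the other low arrays.

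The step from low to high differed between cobalt and chromium for 71 probes, and the named differences (log2) were 3.49 for ENSDART00000073621_2, 2.42 for ENSDART00000040348_2, -1.74 for ENSDART00000102690_2 and -1.66 for ENSDART00000087547_y_1. Between cobalt and nickel it differed for 38 probes, with 1.44 for ENSDART00000073460_y_2, 1.29 for ENSDART00000004483_2, -1.68 for ENSDART00000046891_1 and -1.44 for ENSDART00000060728_y_2.

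Outside the transcripts, the control row named NA read 6.34 on low replicate 2, against 4.62 to 4.70 on the other 15 cobalt arrays.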

How the results depend on the processing

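The count of 65 was sensitive to the processing. It was 194 without the dimmest probes (32785 left) and 172 without probes at or below log2 5 on all 8 arrays, where fewer were tested, and 37 with values below 5 set to 5. It was 642 with spike-in scaling, which held 43 of the 65. With an intensity trend and robust priors it was 293 and with array weights 109. With other arrays in the fit it was 9 (the 8 low and high arrays), 26 (the 12 exposed) and 832 (all 48), and these held 5, 22 and 62 of the 65. It was 22 at a 2-fold limit, 189 of 21903 when probes were averaged per transcript, and 158 without replicate 4 of every cobalt group, whose descriptions in the labels end in "b". The 158 held 40 of the 65. Quantile normalization gave 64 and subtraction of array medians 70, which held 64 and 65 of the 65. Chosen after seeing the data, a slope over the 12 exposed arrays gave 68 and all arrays with each shared control averaged (44) 811. The 68 of the slope held only 40 of the 65, and 37 of them were higher and 31 lower. Leaving out 1 array gave 0 to 293. Same-numbered low and high arrays correlated at -0.0921, 0.131, 0.099 and 0.032 in their deviations from group means, and differently numbered ones at -0.134 to 0.0838. The numbers were not taken as pairs. As 0.131 and 0.099 lie above every differently numbered value, the correlations do not settle whether the numbers mark pairs. The replicate block gave 111 calls, 54 of them among the 65. The cause of these shifts was not tested beyond what each setting changes.

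High minus mid went from 0 to 37 calls, all higher, with spike-in scaling, and to between 0 and 1 when 1 array was left out; mid minus low stayed at 0 in the alternatives run. Cobalt against chromium gave 47 to 111 and cobalt against nickel 0 to 171 when 1 array was left out, and the latter 0 with spike-in scaling; with the replicate block they gave 76 and 48. With shared controls averaged they gave 68 and 35, and with values below 5 set to 5 they gave 58 and 32, both chosen after seeing the data. The probes named for high against low and for the differences between metals kept their direction in all 212 alternatives and passed the threshold in 148. In many alternatives the direction could not change, so that count says little. The filters of dim probes, priors, replicate block, choice of arrays and 2-fold limit leave the difference in group means as it was. For high against low, where groups do not overlap, leaving out an array could not turn the direction either. With the arrays and standard errors at hand, changes of 1.5-fold were mostly not detectable, and probes at or below log2 5 carry little signal over background.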
